A study of Mus musculus with 15 samples.

Results

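Granulocyte-macrophage progenitors (GMPs) whose remaining Cebpa allele was BRM2 (GMP fl/BRM2, 3 arrays) were set against GMPs that kept a normal Cebpa allele (GMP fl/+, 3 arrays), gene by gene. The 6 arrays were taken by their titles from the 15 arrays of the series, and all 19937 genes with a probe set of a single symbol were tested. The series profiled sorted bone marrow progenitors of female C57BL/6 mice with mutant Cebpa, 3 weeks after the knockout. GMP fl/BRM2 had the genotype cebpa fl/BRM2 with Mx1Cre, and GMP fl/+ had cebpa fl/+ with Mx1Cre. GMP fl/p30 (cebpa fl/p30 with Mx1Cre, 3 arrays), in which the p30 allele takes the place of BRM2, served to test which differences were those of BRM2. The remaining 6 arrays came from preGMs, the stage before GMPs: 3 of genotype cebpa fl/p30 with Mx1Cre and 3 labelled cebpa +/+ with Mx1Ce, as spelled there.

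All 5 groups carried the Cre transgene, so none of the differences set animals with Cre against animals without it. The Mx1 promoter is interferon-inducible and drives Cre in most hematopoietic cells and in other tissues, so the floxed allele was not removed from GMPs alone. The GMP fl/+ cells keep 1 normal allele after recombination and are not a fully normal control. GMPs were sorted as cells that carried cKit and FcgRII and lacked lineage markers, Sca1, CD150 and CD41. The animals of GMP fl/BRM2 and of GMP fl/+ have numbers of their own in the titles, so each of their arrays stands for 1 mouse. The p-values rest on a spread pooled over all 5 groups, preGM arrays included, and not on these mice alone. The within-group SD ran from 0.165 in preGM +/+ to 0.319 in GMP fl/+. The 3 animals of GMP fl/p30 bear the same numbers as those of preGM fl/p30, so the 15 arrays came from 12 animals. RNA was amplified from 20 ng, and expression is given as log2 values.

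C/EBPα, the product of Cebpa, is a transcription factor that progenitors need to become granulocytes and monocytes. It activates myeloid genes through its N-terminal part and slows the cell cycle in part by repressing E2F, the factor that drives genes of DNA replication. BRM2 carries substitutions in the basic region that impair E2F repression. The shorter isoform p30 is made without that N-terminal part, and whether it represses E2F was not tested here. GMPs give rise to neutrophils and monocytes, while red cells, platelets and most mast cell and basophil precursors arise from progenitors in which GATA factors act.

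The level of Cebpa was 8.59, 8.48 and 8.86 in the GMP fl/BRM2 arrays and 8.70, 8.10 and 8.34 in the GMP fl/+ arrays, and the groups overlapped (difference 0.27 ± 0.18, SE; limma's adjusted p = 0.562). An array signal for the transcript does not tell the 2 alleles apart, so it does not check the genotype. Mpo, the myeloperoxidase of primary granules, was high in both groups. It lay between 12.66 and 13.02 in GMP fl/BRM2 and between 13.08 and 13.12 in GMP fl/+. These levels were lower in the mutant without overlap but not called (limma's adjusted p = 0.46). Of 16 primary granule genes measured, 3 had a difference above 0 (median -0.48). None was called in a list of 7 genes, named gate genes here. The list held Kit, Fcgr2b, Fcgr3, Slamf1 and Itga2b, and also Eng and Cd34, which are not in the gate described. For Eng and Cd34 the groups overlapped. Kit had 9.74, 10.21 and 10.09 in GMP fl/BRM2 and 9.91, 9.53 and 9.91 in GMP fl/+. Fcgr2b, the gene of the Fcγ receptor II of the gate, had 8.04, 7.23 and 7.57 in GMP fl/BRM2 and 8.38, 9.0 and 8.61 in GMP fl/+, lower without overlap but not called (-1.05 ± 0.30, adjusted p = 0.0903), and it was called without GMP fl/+ replicate 1. Fcgr3, an Fcγ receptor that antibodies used for this gate also bind, had 9.67, 9.11 and 9.38 in GMP fl/BRM2 and 9.70, 9.19 and 9.01 in GMP fl/+. Slamf1, the gene of CD150, stayed between 4.02 and 4.53 in GMP fl/BRM2 and between 4.03 and 4.73 in GMP fl/+, below the median of all genes and arrays (6.34). Itga2b, the gene of CD41, lay at 7.57, 8.29 and 7.81 in GMP fl/BRM2 and at 6.43, 7.15 and 7.12 in GMP fl/+, without overlap but not called (0.99 ± 0.25, adjusted p = 0.0535). These are sorted bulk populations, in which fewer cells of a type and less RNA per cell cannot be told apart.

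In some gene lists, replicate 1 of GMP fl/+ stood apart from the other control arrays. Relative to each gene's mean over the 15 arrays, 51 small nucleolar RNA genes averaged -0.42 in it, against 0.84 and 1.23 in replicates 2 and 3 (0.12, -0.40 and -0.17 in the GMP fl/BRM2 arrays). Its cholesterol synthesis genes averaged 0.25, against -0.87 and -0.45 in replicates 2 and 3 (0.07, 0.14 and 0.12 in the GMP fl/BRM2 arrays). In these 2 lists, replicates 2 and 3 lay farther from the mutant arrays than replicate 1 did. Over all genes, the SD of the difference between control arrays was 0.529 for replicates 1 and 2, 0.41 for 1 and 3 and 0.399 for 2 and 3. Array weights from limma were 0.3, 0.33 and 1.49 for replicates 1, 2 and 3. The within-group SD (root mean square over genes) was 0.195 in GMP fl/BRM2, 0.319 in GMP fl/+ and 0.269 in GMP fl/p30. Counts of called genes without GMP fl/+ replicate 1 are given with the lists where they differ most. Over all 19937 genes, 1524 were called higher and 694 lower without it. A few such calls in a list are therefore no trait of that list. In lists not described further, 8 of 32 glutathione and detoxification genes (2 with the array) and 4 of 17 glycolysis and hypoxia genes (1 with it) were called higher without it. The same was found for 2 of 9 housekeeping genes (0 with it), while 4 of 51 transcription factor genes (1 with it) and 2 of 18 purinergic genes (0 with it) were then called lower. In 10 further lists, that of the gate genes included, 1 gene was called without this array in a direction in which 0 were with it.

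In GMP fl/BRM2, 505 of 19937 genes differed from GMP fl/+ at an adjusted p under 0.05 (limma over all 15 arrays, Benjamini-Hochberg over all genes), which is 2.53%. Of these, 377 were higher (1.89% of genes) and 128 lower (0.642%). The median difference was 1.10 among the genes called higher, -0.94 among those called lower and -0.02 over all genes. A difference of at least 1 (2-fold) was reached by 217 genes called higher and 57 called lower, a difference of at least 2 by 40 and 8, and a difference of at least 3 by 10 and 1. The 3 arrays of one group lay wholly above or below those of the other for 503 of the 505 called genes, and for 3039 genes (15.2%) in all, with the mutant above for 6.74% and below for 8.51%. Calls were rarest among dim genes, with 40 higher and 23 lower among the 9914 at or under the median of 6.34, and commonest between 8 and 10, with 146 higher and 30 lower among 3745. For 158 of the called genes (120 higher, 38 lower) the lower group lay under 6.34, near the background, where log2 differences may understate a change. Differences of such genes are given without a fold.

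**Figure D1:**
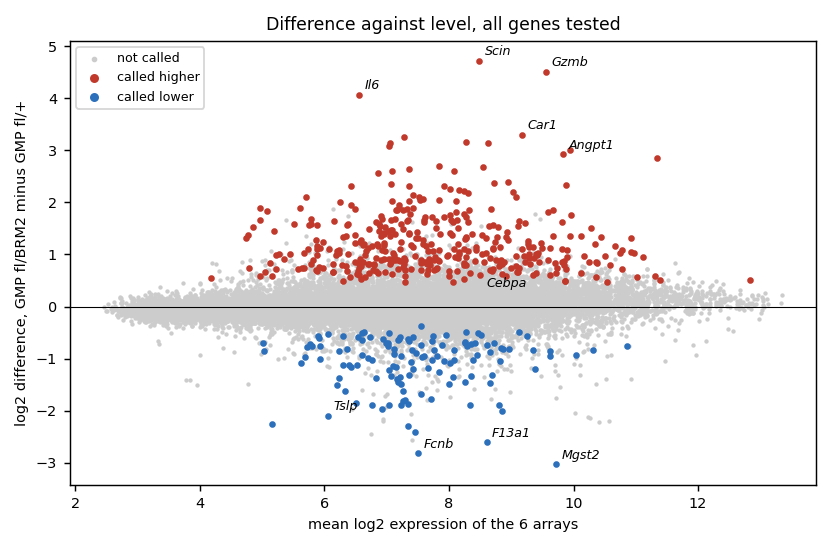
The log2 difference GMP fl/BRM2 minus GMP fl/+ of each of 19937 genes (vertical axis) against its mean log2 expression over the 6 arrays (horizontal axis), with the 377 genes called higher and the 128 called lower in colour. Scin, Gzmb and Il6 stand above 4, and Cebpa lies close to 0 among the genes not called.

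The size of the count depended on the arrays in the fit. It was 108 with the 9 GMP arrays alone, in which no animal has 2 arrays, 131 with the 6 arrays compared and 483 with the animal as a random block. With single arrays left out, it was 634, 134 and 211 without replicates 1, 2 and 3 of GMP fl/BRM2. Leaving out replicate 1 of GMP fl/+ raised it to 2218 (1524 higher, 694 lower), and it was 276 without replicate 2 and 315 without replicate 3 of that group. In all 6 fits with an array left out, 129 of the 505 genes were called, 113 of them higher and 16 lower. With replicate 1 as the only GMP fl/+ array, whose spread is then assumed to be that of the other groups, 113 genes were called, 86 of them among the 505.

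**Figure D2:**
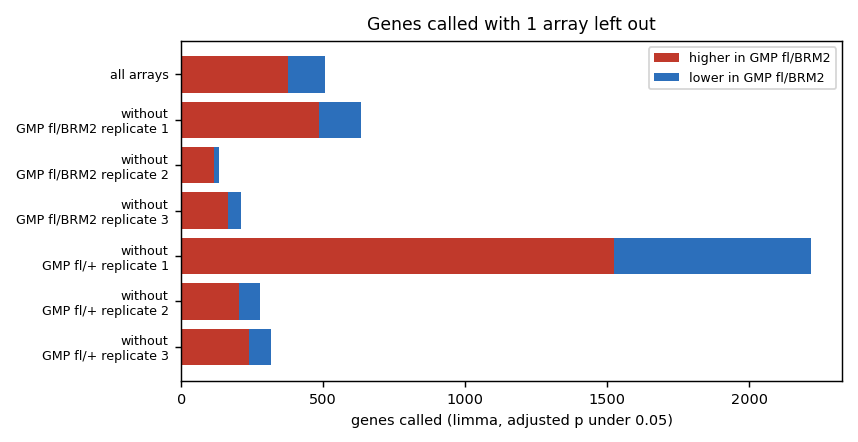
Number of genes called higher and lower in GMP fl/BRM2 than in GMP fl/+ (horizontal axis, limma, adjusted p under 0.05) with all arrays and with each of the 6 arrays left out in turn. The bar without GMP fl/+ replicate 1 reaches 2218 genes, against 505 with all arrays.

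The largest differences were rises. Of the 20 largest named rises, 8 had a GMP fl/+ mean under 6.34. Scin, the gene of the actin-severing protein scinderin, had 10.39, 11.22 and 10.93 in the GMP fl/BRM2 arrays and 5.85, 6.01 and 6.52 in the GMP fl/+ arrays. Gzmb, which encodes granzyme B, a protease of cytotoxic granules, had 11.50, 12.22 and 11.71 in GMP fl/BRM2 and 7.12, 7.41 and 7.35 in GMP fl/+. Il6, the gene of the cytokine interleukin 6, had 7.94, 9.46 and 8.39 in GMP fl/BRM2 and 4.07, 4.58 and 4.94 in GMP fl/+. For each of the 3 genes, the lowest mutant array stood far above the highest control array. The differences were 4.72 ± 0.23 for Scin (adjusted p = 9.71e-08), 4.51 ± 0.27 for Gzmb (22.8-fold, adjusted p = 1.18e-06) and 4.07 ± 0.44 for Il6 (adjusted p = 0.00023). In GMP fl/+, Il6 in all 3 arrays and Scin in 2 of 3 lay under 6.34.

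The next genes in order were of several kinds. Car1 (carbonic anhydrase of red cells) rose 9.84-fold, Ctla2a (a cathepsin inhibitor) 8.93-fold and Trim13 (a ubiquitin ligase) 8.86-fold. Plxdc2, which encodes a membrane protein with a plexin domain, rose by 3.27 and St8sia6, a sialyltransferase gene, by 3.14. A pair of protein kinase C genes was among them, Prkcq with 8.0, 8.94 and 8.79 in GMP fl/BRM2 and 5.17, 5.24 and 6.04 in GMP fl/+, and Prkca with 8.15, 9.13 and 8.76 in GMP fl/BRM2 and 5.77, 6.10 and 6.27 in GMP fl/+. The other 9 protein kinase C genes measured were not called. Ifitm1, an interferon-inducible membrane protein gene, reached 12.66, 12.92 and 12.74 in GMP fl/BRM2, against 10.57, 8.79 and 10.37 in GMP fl/+ (7.27-fold), and a further probe set of it gave 3.72. The 20 largest rises also held Cpa3, Angpt1, Anxa4, Alox5, F2r, Csf2rb2, Gnb4, Slc18a2 and Atp1b2, down to a difference of 2.38. Of these 20 genes, 18 were called in all 6 fits with an array left out, while Anxa4 (adjusted p = 0.0814) and Atp1b2 (adjusted p = 0.0655) were not called without GMP fl/BRM2 replicate 2. In replicate 1 of GMP fl/BRM2 the rises were smaller than in the other mutant arrays: the 377 genes called higher stood a median 0.81 above the GMP fl/+ mean there, against 1.36 and 1.14 in replicates 2 and 3.

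The largest falls were found in genes of maturing granulocytes and monocytes and in genes of other kinds. Mgst2, a microsomal glutathione transferase gene, had 9.40, 6.81 and 8.42 in GMP fl/BRM2 and 10.91, 11.36 and 11.46 in GMP fl/+. Fcnb, which encodes the lectin ficolin B, had 6.43, 5.70 and 6.14 in GMP fl/BRM2 and 9.52, 8.85 and 8.36 in GMP fl/+. F13a1, the gene of the coagulation factor XIII A chain, which monocytes make, had 7.77, 6.08 and 8.06 in GMP fl/BRM2 and 10.08, 9.93 and 9.71 in GMP fl/+. The groups did not overlap for any of the 3 genes, but the spread within the mutant was wide for Mgst2 (SD 1.31). The differences were -3.03 ± 0.72 for Mgst2 (adjusted p = 0.0405), -2.82 ± 0.43 for Fcnb (adjusted p = 0.00324) and -2.60 ± 0.54 for F13a1 (adjusted p = 0.0187). Fcnb was called in all 6 fits with an array left out. Mgst2 was called in 2 of them (adjusted p up to 0.238), and F13a1 lost the call when replicate 2 of either group was left out (adjusted p of at most 0.11).

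The falls were less steady than the rises: 6 of the 20 largest were called in all 6 fits. These were Fcnb, Stox2, Fgd4 (an exchange factor for the GTPase Cdc42), Lonrf3 (a ring finger protein gene), Tmem150b and Gspt2 (a translation termination factor gene). Gspt2 fell 3.53-fold, with 6.00, 6.28 and 6.77 in GMP fl/BRM2 and 8.22, 7.79 and 8.51 in GMP fl/+. Stox2 had a second probe set with a difference of -0.07, so its fall of 2.26 rests on 1 probe set, whereas the second probe set of Ldhb (lactate dehydrogenase B), -1.63, lay close to the first (-1.89). The others were Far2, Mefv, Tslp, Ppic, Prom1, Hdc, Kcnip3, Itga1, Camp, Cask and Alcam, with differences of between -2.40 and -1.69. Each of them and Ldhb lost the call in at least 1 fit, all without GMP fl/BRM2 replicate 2. The falls are shown beside the rises in the plot of the 20 highest and 20 lowest genes by array.

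**Figure D3:**
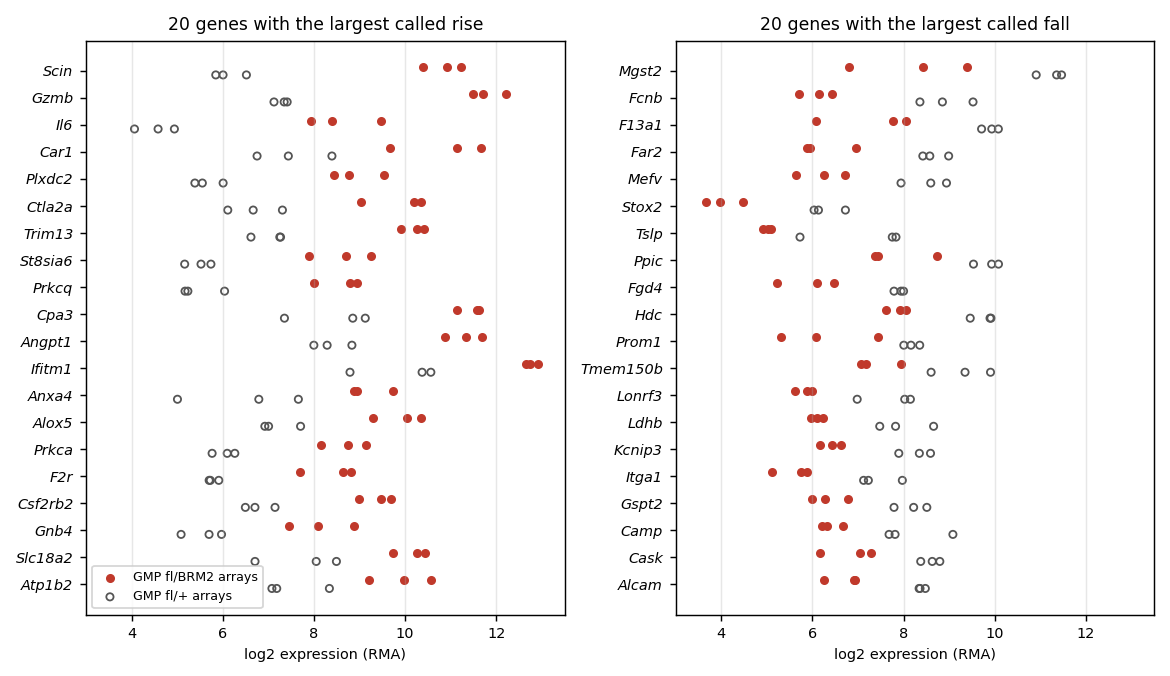
Log2 expression in each GMP fl/BRM2 and GMP fl/+ array for the 20 genes with the largest called rise (left) and the 20 with the largest called fall (right), 3 points a group. The 2 groups of points do not overlap for any of these genes, and Scin and Gzmb are farthest apart.

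Promoters of the 3 genes with the largest rises and the 2 with the largest falls are shown because C/EBP factors bind DNA. Whether the BRM2 substitutions change DNA binding was not tested. They are the 250 bases before the start of transcription (RefSeq, GRCm38.p6), printed 5′ to 3′ on the strand of the gene, with matches to TTGCNNAA, read on both strands, in capitals.
Scin, chr12:40134229-40134478, minus strand: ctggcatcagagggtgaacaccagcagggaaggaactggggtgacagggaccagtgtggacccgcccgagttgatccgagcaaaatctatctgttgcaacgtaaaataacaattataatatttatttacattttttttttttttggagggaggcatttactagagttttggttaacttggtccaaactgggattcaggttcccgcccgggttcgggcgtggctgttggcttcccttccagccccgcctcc
Gzmb, chr14:56262335-56262584, minus strand: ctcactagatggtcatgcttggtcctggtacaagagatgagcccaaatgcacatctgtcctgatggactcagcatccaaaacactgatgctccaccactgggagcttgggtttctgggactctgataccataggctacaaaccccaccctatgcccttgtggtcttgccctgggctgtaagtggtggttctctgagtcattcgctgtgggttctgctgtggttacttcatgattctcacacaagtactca
Il6, chr5:30012864-30013113, plus strand: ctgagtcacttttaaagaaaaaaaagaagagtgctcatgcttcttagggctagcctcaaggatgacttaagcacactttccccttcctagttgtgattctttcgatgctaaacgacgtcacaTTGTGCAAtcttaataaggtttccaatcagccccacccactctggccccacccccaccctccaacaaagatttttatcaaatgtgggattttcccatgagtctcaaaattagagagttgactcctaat
Mgst2, chr3:51660929-51661178, plus strand: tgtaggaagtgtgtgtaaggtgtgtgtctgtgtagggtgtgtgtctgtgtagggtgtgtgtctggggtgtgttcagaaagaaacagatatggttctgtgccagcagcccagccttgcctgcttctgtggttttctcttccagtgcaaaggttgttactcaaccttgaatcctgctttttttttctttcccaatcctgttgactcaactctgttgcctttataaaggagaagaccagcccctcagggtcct
Fcnb, chr2:28084879-28085128, minus strand: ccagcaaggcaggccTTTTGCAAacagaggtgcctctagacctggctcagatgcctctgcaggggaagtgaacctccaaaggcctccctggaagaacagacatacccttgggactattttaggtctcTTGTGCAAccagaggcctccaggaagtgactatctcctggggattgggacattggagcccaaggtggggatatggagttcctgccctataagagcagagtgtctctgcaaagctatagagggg
Il6 held 1 match, TTGTGCAA, 128 to 121 bases before the start, and Fcnb held TTTTGCAA at 235 to 228 bases and TTGTGCAA at 123 to 116 bases before it. The windows of Scin, Gzmb and Mgst2 had no match. Among the 20 largest rises, 2 of the 15 genes with a promoter held a match, and among the 20 largest falls 2 of 16. Counted by gene with a promoter, TTGCNNAA occurred for 42 of the 294 called higher (14.29%), 7 of the 102 called lower (6.86%) and 10.05% of the 15613 tested. Counted by promoter, it occurred in 9.56% of all 32851. An E2F-type motif, TTTNNCGC, occurred for 17 of the 294 genes (5.78%), 4 of the 102 (3.92%) and 6.32% of the tested genes with a promoter. These shares describe letters in a window and were not tested.

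The gene lists were chosen with earlier results of these data known, so their counts beside the shares of all genes are descriptions. Red cell genes were among the rises in GMP fl/BRM2. Of 25 erythroid genes measured, 10 were called higher (all genes, 1.89%) and 0 lower (all genes, 0.642%). The median difference over the list was 0.84 (all genes, -0.02), and 24 of the 25 differences were above 0. Car2, a second carbonic anhydrase gene, rose 4.69-fold, with 8.41, 9.68 and 9.75 in GMP fl/BRM2 and 7.79, 6.32 and 7.04 in GMP fl/+. Icam4, the gene of a red cell adhesion molecule, rose by 1.47 ± 0.19, and Tspan8, a tetraspanin gene, by 1.49 ± 0.26. Gata1, the transcription factor gene that directs red cell and platelet development, named after its values were seen, had 6.95, 7.88 and 7.53 in GMP fl/BRM2 and 6.10, 6.35 and 6.31 in GMP fl/+ (1.20 ± 0.20, adjusted p = 0.0046). Slc4a1, the anion exchanger of the red cell membrane, Ermap, Mns1, Nfe2 and Gfi1b were also called, with rises of between 0.96 and 1.07. Not all markers moved: Klf1, a factor of later red cell development, had 7.24, 7.75 and 7.31 in GMP fl/BRM2 and 6.6, 7.29 and 6.82 in GMP fl/+ (adjusted p = 0.154), and Epor, the erythropoietin receptor gene, differed by 0.27 ± 0.13 (adjusted p = 0.341). The 25 genes deviated on average by -0.01, 0.66 and 0.47 in the GMP fl/BRM2 arrays and by -0.53, -0.47 and -0.67 in the GMP fl/+ arrays, so the first mutant array was nearest to the control. The number called higher was 12 without that array, 5 without GMP fl/BRM2 replicate 2, 7 without replicate 3, and 10, 9 and 6 without GMP fl/+ replicates 1, 2 and 3. Against GMP fl/+ replicate 1 alone, 1 was called.

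Of 18 megakaryocyte and platelet genes measured, 5 were called higher (all genes, 1.89%), 0 lower (all genes, 0.642%) and 13 not called, with a median of 0.35. F2r, the gene of a thrombin receptor, had 7.70, 8.82 and 8.63 in GMP fl/BRM2 and 5.91, 5.70 and 5.73 in GMP fl/+ (2.60 ± 0.27). Plek, which encodes pleckstrin, a protein kinase C substrate of platelets, rose 4.28-fold, with 9.54, 10.48 and 10.35 in GMP fl/BRM2 and 7.96, 7.81 and 8.32 in GMP fl/+. Gp5, a subunit of the platelet receptor for von Willebrand factor, and Itgb3, the β3 integrin, were called with smaller rises, 1.03 and 0.82. Gp5 was called in 2 of the 6 fits with an array left out. Classical platelet genes stayed near the background, Pf4 with 5.88, 6.38 and 6.28 in GMP fl/BRM2 and 5.59, 5.25 and 5.13 in GMP fl/+, and Ppbp at no more than 5.71 in any of the 6 arrays. Pf4 (0.86 ± 0.43, adjusted p = 0.371) and Ppbp (0.48 ± 0.34, adjusted p = 0.589) lay higher in the mutant without overlap but were not called. The mutant arrays lay wholly above for 9 of the 18 genes (all genes, 6.74%) and wholly below for 0 (all genes, 8.51%). Without GMP fl/BRM2 replicate 2 the count of 5 fell to 2, and leaving out GMP fl/BRM2 replicate 3 or GMP fl/+ replicates 2 or 3 made it 3. Whether red cell or platelet precursors within the sorted gate took part in these rises was not tested.

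Mast cell, basophil and eosinophil genes went both ways. Of 24 measured, 7 were called higher (all genes, 1.89%) and 3 lower (all genes, 0.642%), with a median of 0.26. Cpa3, the carboxypeptidase of mast cell granules, had 11.14, 11.62 and 11.58 in GMP fl/BRM2 and 9.13, 7.35 and 8.85 in GMP fl/+ (8.01-fold). Slc18a2, the transporter that loads monoamines into granules, rose 5.26-fold, with 9.75, 10.43 and 10.27 in GMP fl/BRM2 and 6.71, 8.05 and 8.49 in GMP fl/+. Gata2, a transcription factor gene of stem, mast and megakaryocytic cells, rose 3.42-fold, with 8.84, 9.42 and 9.10 in GMP fl/BRM2 and 6.94, 7.49 and 7.62 in GMP fl/+. All 3 genes kept the call in each fit with an array left out. Cma1, a mast cell chymase gene, rose by 1.57 from levels near the background, and Csrp3, Ccr3 and Mitf were called with rises of 1.38, 0.75 and 0.67, Ccr3 in 0 and Mitf in 2 of the 6 fits. Against these, Hdc, the enzyme gene for histamine, fell 3.73-fold, with 8.05, 7.61 and 7.92 in GMP fl/BRM2 and 9.92, 9.89 and 9.46 in GMP fl/+. Ear6, an eosinophil ribonuclease gene, fell by 1.62, and Prss34, a protease gene that basophils express in mice, by 1.38 with the call kept in all 6 fits. The other 14 genes were not called. Ms4a2 and Fcer1a, which encode the β and α chains of the high-affinity receptor for IgE, lay higher without overlap: Ms4a2 had 8.56, 9.80 and 8.69 in GMP fl/BRM2 and 7.30, 8.28 and 8.48 in GMP fl/+ (0.99 ± 0.32, adjusted p = 0.138), and Fcer1a had 7.37, 7.67 and 7.70 in GMP fl/BRM2 and 7.22, 6.39 and 7.06 in GMP fl/+ (0.69 ± 0.51, adjusted p = 0.602). Mcpt8, a basophil protease gene, had 10.26, 9.98 and 9.76 in GMP fl/BRM2 and 10.18, 9.94 and 10.51 in GMP fl/+, and the mast cell protease genes Mcpt1 and Mcpt4 lay at or under 4.69 in all 6 arrays. The count called higher stayed between 5 and 6 in the 6 fits with an array left out, and the count called lower was 1 without GMP fl/BRM2 replicate 2 and 2 or 3 otherwise.

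Of 24 secondary granule and neutrophil genes, 0 were called higher (all genes, 1.89%) and 5 lower (all genes, 0.642%), with a median of -0.48. The mutant arrays lay wholly below the control arrays for 12 of them (all genes, 8.51%) and wholly above for 1 (all genes, 6.74%). Besides Fcnb, these were Mefv (pyrin, a sensor that assembles an inflammasome), Camp (the antimicrobial peptide cathelicidin), Abca13 (a transporter) and Csf3r, the receptor gene for granulocyte colony-stimulating factor. Csf3r had 7.93, 6.82 and 7.42 in GMP fl/BRM2 and 8.40, 9.19 and 8.65 in GMP fl/+ (2.56-fold lower, adjusted p = 0.046). Camp had 6.66, 6.21 and 6.32 in GMP fl/BRM2 and 9.08, 7.81 and 7.68 in GMP fl/+ (3.46-fold lower, adjusted p = 0.0406). The count of 5 was 1 without GMP fl/BRM2 replicate 2, 2 without replicate 3 and 2 without GMP fl/+ replicate 2. Against GMP fl/+ replicate 1 alone, Fcnb and Camp were called. Primary granule genes, which GMPs express at high level, had 0 of 16 called in either direction (all genes, 2.53%) and a median of -0.48. Elane, the neutrophil elastase gene, ranged widely in the mutant, with 10.59, 7.34 and 9.56 in GMP fl/BRM2 and 11.72, 11.25 and 10.90 in GMP fl/+ (-2.12 ± 0.86, adjusted p = 0.254). The mean deviation of the 16 genes was 0.61, -0.45 and 0.18 in the GMP fl/BRM2 arrays and 1.18, 0.24 and 0.64 in the GMP fl/+ arrays, so the groups overlapped.

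Of 25 monocyte and dendritic genes, 2 fell (all genes, 0.642%) and 1 rose (all genes, 1.89%). Irf8, the transcription factor gene of the monocyte and dendritic lineages, had 7.5, 7.30 and 7.81 in GMP fl/BRM2 and 9.35, 8.98 and 8.60 in GMP fl/+ (2.72-fold lower, adjusted p = 0.0186), and it lost the call when replicate 2 of either group was left out. Id2, an inhibitor of basic helix-loop-helix factors, rose 3.30-fold (adjusted p = 0.0478) and was called in 2 of the 6 fits. Csf1r, the receptor gene of the macrophage growth factor, lay lower without overlap, with 7.33, 6.06 and 7.01 in GMP fl/BRM2 and 8.53, 7.73 and 8.15 in GMP fl/+, and was not called (adjusted p = 0.171). The C/EBP family held 1 called member of 6, Cebpd, which is induced in maturing granulocytes. It had 7.25, 6.36 and 6.66 in GMP fl/BRM2 and 7.71, 7.96 and 7.48 in GMP fl/+ (1.94-fold lower, adjusted p = 0.0345; lost in 3 of 6 fits).

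**Figure D4:**
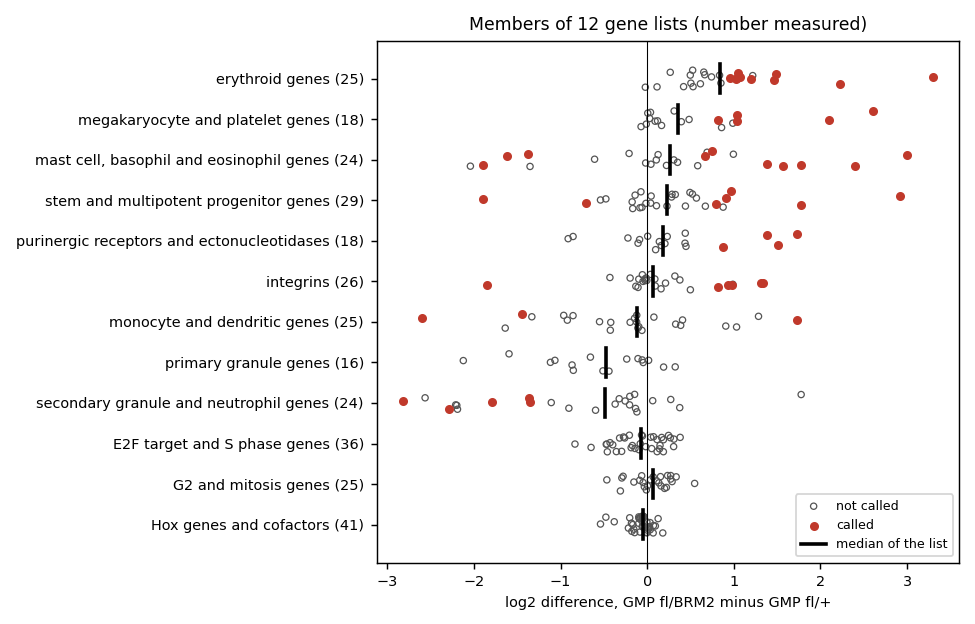
Log2 differences GMP fl/BRM2 minus GMP fl/+ (horizontal axis) of the members of 12 gene lists, with called genes filled and the median of each list as a bar. The erythroid list has its median at 0.84 and no called gene below 0, and the secondary granule list has its median at -0.48 and no called gene above 0.

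Several transcription factor genes rose. Of 51 myeloid and lineage transcription factor genes, 10 were called higher (all genes, 1.89%) and 1, Irf8, lower (all genes, 0.642%), with a median of 0.07. Ikzf2, which encodes the zinc finger factor Helios, had 10.42, 11.03 and 10.32 in GMP fl/BRM2 and 8.30, 8.83 and 9.08 in GMP fl/+ (3.61-fold). Tox, the gene of an HMG-box factor known from T cell development, had 7.45, 8.51 and 8.60 in GMP fl/BRM2 and 6.35, 6.6 and 6.07 in GMP fl/+ (3.60-fold). Neither overlapped between the groups, and Ikzf2, Tox, Gata2 and Gata1 kept the call in all 6 fits. Rora, Gfi1b, Sox4, Runx1 and Satb1, called with rises of between 0.86 and 1.28, each lost it in at least 1. The count called higher was 4 without GMP fl/BRM2 replicate 2 and 6 without replicate 3.

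Stem and multipotent progenitor genes had 5 of 29 higher (all genes, 1.89%) and 2 lower (all genes, 0.642%), with a median of 0.23. Angpt1, the ligand gene of the receptor Tie2, was the largest, with 10.89, 11.68 and 11.33 in GMP fl/BRM2 and 8.0, 8.29 and 8.83 in GMP fl/+ (7.58-fold, adjusted p = 7.1e-05). Cd48 and Txnip, a brake on thioredoxin, were called with rises of 0.96 and 0.80. Prom1, the gene of the surface protein CD133, and Hlf, a factor of stem cells, were called lower, by 1.90 and 0.71, each in 2 or fewer of the 6 fits. The count of 5 was 2 without GMP fl/BRM2 replicates 2 or 3 and 3 without GMP fl/+ replicate 2. Of 31 genes linked to leukaemia, 5 rose (all genes, 1.89%) and 1 fell (all genes, 0.642%). Phf6, a chromatin gene, rose 1.88-fold in all 6 fits. Jak2, the kinase gene of cytokine receptors, had 9.35, 10.09 and 9.93 in GMP fl/BRM2 and 9.0, 8.42 and 8.91 in GMP fl/+ (2.02-fold, adjusted p = 0.028). Jak2 was called in 2 of the 6 fits. The others were Gata2, Sox4, Runx1 and Csf3r. Without GMP fl/BRM2 replicates 2 or 3, 2 of the 31 were called higher, without GMP fl/+ replicates 2 and 3, 2 and 3 were, and without GMP fl/+ replicate 1, 12 were. Hox genes and their cofactors had 0 of 41 called (all genes, 2.53%), with a median of -0.05, and 33 of the 41 lay under 6.34 in both groups. Hoxa9, a gene that stem cells and many leukaemias express, had 6.33, 6.27 and 6.36 in GMP fl/BRM2 and 6.69, 6.74 and 6.96 in GMP fl/+ (adjusted p = 0.191).

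Cytokine receptor genes were called in both directions. Of 23 myeloid cytokine receptor genes, 2 rose (all genes, 1.89%) and 4 fell (all genes, 0.642%). The common β chain genes were higher: Csf2rb2, the mouse chain that serves interleukin 3 alone, had 9.48, 9.70 and 8.99 in GMP fl/BRM2 and 7.15, 6.50 and 6.71 in GMP fl/+ (6.08-fold), and Csf2rb rose 2.22-fold (called in 1 of the 6 fits). These chains are near-identical in sequence, so their probe sets may share signal. Csf2ra, the α chain for the granulocyte-macrophage factor, was lower, with 9.13, 8.41 and 8.80 in GMP fl/BRM2 and 9.52, 10.38 and 10.06 in GMP fl/+ (2.31-fold, adjusted p = 0.0288). Il6st, which encodes gp130, the signalling chain of the interleukin 6 receptor, was 2.49-fold lower, and Il6ra 1.56-fold lower (adjusted p = 0.0322 and 0.0218). Both chains of the interleukin 6 receptor were thus lower in the arrays in which Il6 was higher. Il6ra and Il6st lost the call in 3 of 6 fits, and Csf2ra in 4. Without GMP fl/BRM2 replicates 2 or 3 none of the 4 falls was called, and without GMP fl/+ replicates 2 or 3, 1 was.

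Among 52 cytokine and chemokine ligand genes, 3 rose (Il6, Angpt1 and Ccl9; all genes, 1.89%) and 3 fell (Tslp, Il12a and Ebi3; all genes, 0.642%). Tslp, the gene of thymic stromal lymphopoietin, fell by 2.10, with 5.08, 4.91 and 5.03 in GMP fl/BRM2 and 5.73, 7.75 and 7.83 in GMP fl/+. Its replicate 1 control array was nearer to the mutant than to the other controls. Il12a and Ebi3, which encode cytokine chains of the interleukin 12 family, fell 2.61-fold and 2.21-fold and were called in 1 and 2 of the 6 fits. None of the 3 falls was called without GMP fl/BRM2 replicates 2 or 3 or GMP fl/+ replicate 2, while 1 was without GMP fl/+ replicate 3, and 5 ligand genes were without GMP fl/+ replicate 1. Ccr1 and Ccr3 were the called members among 20 chemokine receptor genes, with rises of 1.59 and 0.75. Ccr1 was called in 4 of the 6 fits, not without replicate 2 of either group, and Ccr3 in 0 of the 6.

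Of 17 granzyme, perforin and chymase genes, 3 were called higher (all genes, 1.89%), Gzmb, Cma1 and Gzmc, another granzyme gene (0.75 ± 0.18, called in 2 of the 6 fits). Prf1, the perforin gene, had 6.59, 6.59 and 6.54 in GMP fl/BRM2 and 6.59, 6.81 and 6.71 in GMP fl/+. T and NK cell genes had 1 called member of 21 (all genes, 2.53%), Lat, an adaptor of T cell and mast cell receptors. It had 8.86, 9.62 and 9.27 in GMP fl/BRM2 and 7.08, 7.14 and 7.96 in GMP fl/+ (3.62-fold). Of the 21, 18 lay under 6.34 in both groups. Cd3e, Cd3g and Cd4, which define T cells, and Ncr1, of NK cells, overlapped between the groups, with Cd3e between 6.23 and 6.39 in GMP fl/BRM2 and between 6.16 and 6.45 in GMP fl/+. The mean deviation of the 21 genes was -0.17, 0.01 and -0.08 in the GMP fl/BRM2 arrays and -0.32, -0.16 and -0.21 in the GMP fl/+ arrays. Dntt, the terminal transferase gene of early lymphoid cells, rose by 1.89 ± 0.27 and, with Satb1, made up the 2 called genes of 22 B lymphoid and lymphoid priming genes.

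Surface, lipid and signalling genes were among the rises, to be read beside 1.89% of all genes called higher and 0.642% called lower. Of 26 integrin genes, 5 rose and 1 fell: Itga4, with 11.28, 11.93 and 11.52 in GMP fl/BRM2 and 10.41, 9.93 and 10.45 in GMP fl/+ (2.49-fold), Itgax (1.33), Itgb7, Itga6 and Itgb3 higher, and Itga1 lower (-1.85). Without GMP fl/BRM2 replicate 2 the count of 5 was 2, and without GMP fl/+ replicate 3 it was 3. Of 18 purinergic receptor and ectonucleotidase genes, 4 rose: P2rx1 3.31-fold, P2rx4 2.84-fold, P2ry14 2.62-fold and P2rx7 1.84-fold, all receptors for extracellular nucleotides or nucleotide sugars. P2rx4 was called in 2 of the 6 fits and the other 3 genes in all of them. Of 20 genes of eicosanoid and platelet-activating factor metabolism, 3 rose and 1, Mgst2, fell. Alox5, the 5-lipoxygenase gene that starts leukotriene synthesis, had 9.29, 10.35 and 10.04 in GMP fl/BRM2 and 7.01, 7.71 and 6.92 in GMP fl/+ (6.4-fold), and Lpcat2, an enzyme gene of platelet-activating factor synthesis, rose 2.94-fold. Of 43 sialyltransferase and glycan enzyme genes, 5 rose, led by St8sia6 and by Fut8, the core fucosyltransferase gene (2.57-fold), both in all 6 fits. Mgat4a, St6gal1 and Fut7 were called with rises of 0.84 or less, and the count was 2 without GMP fl/BRM2 replicates 2 or 3 or GMP fl/+ replicate 2. It was 3 with GMP fl/+ replicate 3 left out. Gimap6 and Gimap9, 2 of 8 GTPase genes of the Gimap cluster, rose by 1.54 and 1.41, and all 8 differences were above 0. Neither was called without GMP fl/BRM2 replicate 2.

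Pecam1 and Pdgfrb were the called members of 14 stroma and endothelium genes (all genes, 2.53%), with rises of 1.35 ± 0.15 and 1.67 ± 0.28 in all 6 fits. Pecam1 is an adhesion molecule that myeloid progenitors share with endothelium, and it had 10.50, 10.85 and 10.53 in GMP fl/BRM2 and 9.28, 9.14 and 9.40 in GMP fl/+. Mature macrophage genes had 0 of 16 called, and the 2 largest differences were those of Hmox1, 1.03 ± 0.29 (adjusted p = 0.0793), and Apoe, 0.69 ± 0.24 (adjusted p = 0.182). Of 17 p53 target genes, 2 were called higher (all genes, 1.89%), and the other 15 were not called. Trp53inp1 rose 4.19-fold and Perp 2.78-fold, both in all 6 fits. Without GMP fl/+ replicate 1, 4 were called. Of 23 interferon response genes, 3 were called higher (all genes, 1.89%). These were Rtp4, Ddx58 and Rsad2, with rises of 1.89, 1.62 and 0.78. Without GMP fl/BRM2 replicate 2, in which the list's mean deviation was highest of the mutant arrays (0.18, against -0.28 and -0.31), 0 of them were called, and without replicate 3, 1 was.

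Of 36 E2F target and S phase genes, 0 were called (all genes, 2.53%), with a median of -0.07, and the list's mean deviation was -0.02, -0.10 and 0.06 in the GMP fl/BRM2 arrays and 0.30, -0.09 and 0.02 in the GMP fl/+ arrays. Cdc45, a part of the replicative helicase, had the largest difference of the list, lower in the mutant, with 9.16, 8.84 and 9.04 in GMP fl/BRM2 and 9.81, 10.02 and 9.72 in GMP fl/+ (-0.83 ± 0.32, adjusted p = 0.22). A second, dimmer probe set of Tk1, the thymidine kinase gene, passed the threshold when all probe sets were tested (-0.62, adjusted p = 0.0489), and the probe set used gave -0.65 (adjusted p = 0.23). The mutant arrays lay wholly above the control arrays for 1 of the 36 genes (all genes, 6.74%) and wholly below for 10 (all genes, 8.51%). Of 25 G2 and mitosis genes, 0 were called (median 0.07). Among 13 E2F and pocket protein genes, Rbl2, the gene of the pocket protein p130, rose 1.82-fold, with 8.82, 9.19 and 8.96 in GMP fl/BRM2 and 8.39, 7.92 and 8.07 in GMP fl/+ (adjusted p = 0.00931, lost without GMP fl/BRM2 replicate 2). Cdkn2d, an inhibitor of the G1 kinases, rose 1.56-fold and was the 1 called gene of 12 inhibitors and G1 cyclins. It was called in 2 of the 6 fits with an array left out. Without GMP fl/+ replicate 1, 2 S phase genes were called higher and 1 lower (all 19937 genes, 1524 and 694).

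In several metabolic lists, replicate 1 of GMP fl/+ lay apart from the other control arrays. With all arrays, 0 of 18 cholesterol synthesis genes (median 0.48), 0 of 26 oxidative phosphorylation genes (median 0.25), 0 of 24 Myc and ribosome biogenesis genes (median 0.02) and 0 of 51 small nucleolar RNA genes (median -0.79) were called. Without that array, 9 cholesterol synthesis and 13 oxidative phosphorylation genes were called higher and 21 small nucleolar RNA genes lower (all 19937 genes, 1524 and 694). Idi1, an enzyme of cholesterol synthesis, shows the pattern: it had 7.28, 7.69 and 7.59 in GMP fl/BRM2 and 7.70, 5.01 and 6.4 in GMP fl/+. The mean deviation of the oxidative phosphorylation genes was 0.05, -0.01 and 0.15 in GMP fl/BRM2 and 0.33, -0.50 and -0.34 in GMP fl/+, so the 3 mutant arrays lay between the control arrays. Of 9 housekeeping genes 0 were called with all arrays.

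Some further families were looked at after their members were seen among the called genes. Their counts, like those of the lists above, are descriptions. Among all genes, 1.89% were called higher and 0.642% lower, so 0 falls or 0 rises in a family say little. Of 32 NOD-like receptor and inflammasome genes, 5 fell and 0 rose: Mefv, Card9, Nod1, Nlrp1a and Gsdmd. Nod1, a sensor of bacterial peptidoglycan, fell by 1.12 ± 0.19 in all 6 fits, and Gsdmd, the pore former of pyroptosis, fell 1.79-fold. Of 20 lysosomal enzyme genes, 5 fell and 0 rose: Galc, Hpse, Tcirg1, Acp2 and Neu1. Galc, the galactosylceramidase gene, had 5.64, 5.07 and 5.64 in GMP fl/BRM2 and 7.35, 6.34 and 7.15 in GMP fl/+. Genes called higher were also found in the SLAM family (3 of 12: Sh2d1b1, Cd244a and Cd48), the carbonic anhydrases (3 of 16) and the tetraspanins (3 of 26). The Rab GTPases (4 of 59, led by Rab37, 4.07-fold) and the Janus kinases and STATs (Jak1 and Jak2, 2 of 9) held some as well. Of 8 fatty acid desaturase genes, 2 rose, Fads2 4.75-fold and Fads1 2.56-fold. The Ifitm genes diverged, with Ifitm1 higher and Ifitm7 lower (2.73-fold) among 7. Among the surface genes, Dpp4, which encodes CD26, had 9.64, 10.68 and 10.05 in GMP fl/BRM2 and 7.82, 7.81 and 8.13 in GMP fl/+ (4.59-fold), and Cdh1, which encodes E-cadherin, rose 4.53-fold.

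Whether these differences were those of BRM2 or of both mutant alleles was asked by setting GMP fl/BRM2 against GMP fl/p30. The difference itself uses no GMP fl/+ array, but the pooled spread of its test does. A single gene of 19937 was called (0.00502%), Tox, with 687 at an unadjusted p under 0.05. Tox had 7.45, 8.51 and 8.60 in GMP fl/BRM2 and 10.94, 10.58 and 9.80 in GMP fl/p30, against 6.35, 6.6 and 6.07 in GMP fl/+. The BRM2 arrays thus lay between the other groups without overlap, and the difference from GMP fl/p30 was -2.25 ± 0.30 (4.76-fold lower, adjusted p = 0.0482, 95% interval -2.89 to -1.61). This call was lost in the fits of the 6 arrays or of the 9 GMP arrays alone, with the replicate block, after a second quantile normalization and without any 1 of the 3 BRM2 arrays or of GMP fl/p30 replicates 1 and 2, where 0 genes were called, while 12 were called without GMP fl/p30 replicate 3. Tox also missed the threshold without GMP fl/+ replicate 1 (adjusted p = 0.0545) or replicate 3 (0.0807) and with replicate 1 as the only GMP fl/+ array (0.0599), and its adjusted p ran from 0.000248 to 0.891 over 20 alternatives. Replicate 1 of GMP fl/p30 stood apart as well, with mean deviations of -1.25 for the small nucleolar RNA genes and -0.94 for the G2 and mitosis genes.

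Of the 20 largest rises and the 20 largest falls against GMP fl/+, 0 were called against GMP fl/p30, 0 were free of overlap with its arrays (all genes, 8.33%), and every difference was under 1 in size (-0.83 to 0.29 among the rises, -0.83 to 0.85 among the falls). Scin had 10.39, 11.22 and 10.93 in GMP fl/BRM2 and 11.74, 11.35 and 10.91 in GMP fl/p30, against 5.85, 6.01 and 6.52 in GMP fl/+, and its 95% interval of BRM2 minus p30 ran from -0.98 to -0.002. Gzmb differed by -0.12 (95% interval -0.71 to 0.46), Il6 by -0.26 (-1.21 to 0.68) and Fcnb by -0.41 (-1.34 to 0.52). An adjusted p that misses the threshold does not show that the alleles act alike, and these intervals give the differences the arrays leave room for. Differences were larger for some other named genes, none of them called. Itgax, the gene of the integrin CD11c, had 6.57, 7.37 and 6.95 in GMP fl/BRM2 and 7.84, 8.25 and 7.58 in GMP fl/p30, wholly below (-0.92, 95% interval -1.36 to -0.49), against 5.47, 5.77 and 5.65 in GMP fl/+. Id2 differed by -1.01 (-1.92 to -0.10), Mgst1, a glutathione transferase gene, by -1.26 (-2.63 to 0.10), the heat shock gene Hspa1a by 1.33 (-0.34 to 3.0) and Snord61, a small nucleolar RNA gene, by 1.5 (-0.74 to 3.73). Of the 126 named genes, these 4 and Tox reached 1 in size, and the interval left out 0 for 12. Gimap9 differed by -0.73 (95% interval -1.25 to -0.21), and the 8 Gimap genes had a median of -0.59, the values of GMP fl/BRM2 being lower.

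The called genes were also located in the other arrays. The 377 genes called higher stood a median 0.81, 1.36 and 1.14 above the GMP fl/+ mean in the GMP fl/BRM2 arrays, 1.43, 1.39 and 0.94 in the GMP fl/p30 arrays, 1.11, 1.17 and 1.14 in the preGM fl/p30 arrays and 0.74, 0.69 and 0.69 in the preGM +/+ arrays. The 128 genes called lower stood at -0.77, -1.06 and -0.94 in GMP fl/BRM2, at -1.03, -0.91 and -0.58 in GMP fl/p30, at -1.03, -0.86 and -0.94 in preGM fl/p30 and at -0.59, -0.62 and -0.63 in preGM +/+. All these are measured from the same GMP fl/+ arrays that chose the genes, so they were not tested. Single genes differed in this. Scin had 5.93, 5.75 and 5.83 and Gzmb 5.48, 4.57 and 5.21 in preGM +/+, no higher than in GMP fl/+, whereas Angpt1 had 10.93, 10.68 and 10.63 and Car1 10.12, 10.70 and 10.11 there, near the mutant GMPs. Fcnb had 5.39, 6.19 and 6.00 in preGM +/+, which overlaps with its levels in GMP fl/BRM2.

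**Figure D5:**
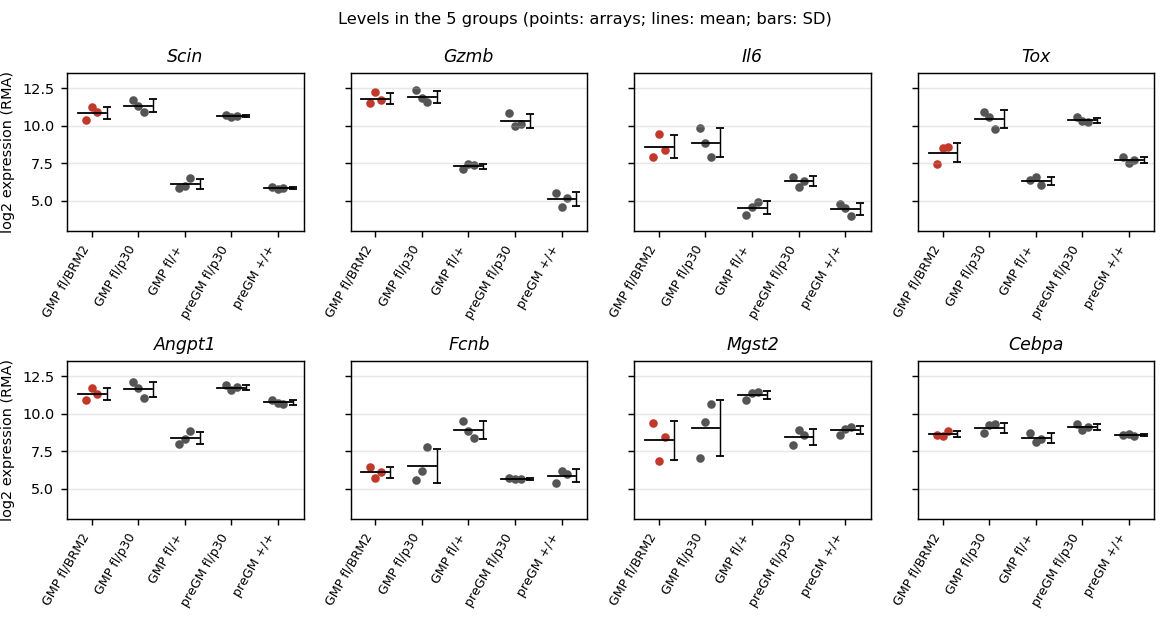
Log2 expression of Scin, Gzmb, Il6, Tox, Angpt1, Fcnb, Mgst2 and Cebpa in the 5 groups (points, 3 arrays a group; lines, means; bars, SD). Scin, Gzmb and Il6 are high in both mutant GMP groups and low in GMP fl/+, and Tox in GMP fl/BRM2 lies between GMP fl/p30 and GMP fl/+.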

How the data were processed

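Expression in 15 samples of sorted progenitors was read from Affymetrix Mouse Gene 1.0 ST arrays. The authors deposited log2 expression values, made with affy and RMA (background correction, quantile normalization, summary per probe set) per the submitters' processing notes. The sources used here name no version and no filter. Arrays have no read depth, and 3 arrays a group limit the precision. Array medians lay between 6.03 and 6.23.

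Of 34760 probe sets, 21640 had 1 gene symbol in the platform annotation, 1321 had several and 11799 are unnamed here. RefSeq (GRCm38.p6) matched 21553 of the 21640 by Entrez ID, and 0 symbols changed. For the 954 genes with more than 1 probe set, the brightest on average over all 15 arrays was used, and no dim probe set was removed. Group means of all 5 groups were fitted with limma 3.58.1 (R 4.3.3; 10 residual and 4.24 prior degrees of freedom). ± is the SE unless stated otherwise, called means a Benjamini-Hochberg adjusted p under 0.05 over 19937 genes, and adjusted p-values are limma's. The shared estimate of the spread lies below that of GMP fl/+ alone. An exact permutation test of 3 against 3 arrays cannot go below p = 0.1, so none was used. The fit was tested on simulated data with the spread of these 19937 genes in independent arrays, the same in every group. Of 100 genes changed by 1 it called 86%, of 100 changed by 2 it called 100%, and 10 unchanged genes were called. In the data the within-group SD ran from 0.165 to 0.319 and some arrays share animals. The simulation therefore checks the code and does not give the power or false calls of these arrays. Arrays of preGM fl/p30 and GMP fl/p30 share 3 animals and entered the fit as independent; their deviations correlated at 0.33, 0.32 and 0.12 within animals.

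Named genes are Cebpa, the 20 largest rises and the 20 largest falls called without overlap, up to 4 called members of each list (2 members where none was called), the gate genes and the genes called against GMP fl/p30; others, among them the defining markers and family members outside this rule, were named after their values were seen. Comparison, members, lists and tests were chosen with earlier results of these data known. Alternatives were other samples in the fit, a replicate block, array weights, an intensity trend, other probe sets, a filter, 2 rescalings, a size threshold and each array left out. GMP fl/+ replicate 1 as the only control, the 9 GMP arrays alone and the animal as a random block (duplicateCorrelation) were added after seeing the data.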

Additional observations from a re-analysis of the deposited data

Results flagged for a closer look

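Tox differed between the 2 mutants by a test of the difference itself: GMP fl/BRM2 minus GMP fl/p30 was -2.25 ± 0.30 (limma's adjusted p = 0.0482 over 19937 genes). Each of the 3 GMP fl/BRM2 arrays lay below each of the 3 GMP fl/p30 arrays and above each of the 3 GMP fl/+ arrays. The call was lost in 12 of 20 alternative fits, among them the 6 arrays alone, the 9 GMP arrays alone, the replicate block, a second quantile normalization and 5 of the 6 fits that left out an array of either mutant, with an adjusted p of between 0.000248 and 0.891 and a difference of between -2.57 and -1.88.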

How the results depend on the processing

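The number of genes called in GMP fl/BRM2 against GMP fl/+ was 505 (377 higher, 128 lower). It was 131 (102 and 29) when the 6 arrays were fitted alone, 2187 (1338 and 849) with array weights, 274 (217 and 57) when a difference of at least 1 was also required, 113 (86 and 27) with GMP fl/+ replicate 1 as the only control and 108 (90 and 18) with the 9 GMP arrays alone. Leaving out 1 array gave from 134 to 2218 genes, from 114 to 1524 of them higher and from 20 to 694 lower. With the replicate block it was 436 (321 and 115). Same-numbered arrays of GMP fl/BRM2 and GMP fl/+ come from different animals, and their deviations correlated at -0.05, 0.02 and -0.08. For GMP fl/BRM2 and GMP fl/p30 this was -0.29, 0.06 and 0.02, whereas the numbers do pair GMP fl/p30 with preGM fl/p30, which share animals. With the animal as a random block it was 483 (361 and 122). The intensity trend, the mean of a gene's probe sets, the filter at the median, a second quantile normalization and median centring gave between 452 and 550. Against GMP fl/p30, 1 gene was called. This became 0 with the 6 arrays alone, the 9 GMP arrays alone, the replicate block and the second quantile normalization, 2 with median centring and 283 with array weights, and it ran from 0 to 12 with 1 array left out. Among 126 named genes, 49 lost the call when the 6 arrays were fitted alone, 56 with the 9 GMP arrays alone, 2 with the animal as a random block, 10 with the replicate block and 57 with GMP fl/+ replicate 1 as the only control. The cause was not tested. Dim genes limit the comparison: for 158 of the called genes the lower group lay near the background.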
